A study of Mus musculus with 13 samples.

Results

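The 10 genes described here defend membranes against lipid peroxidation or move and store iron. They are Gpx4, Aifm2 and Slc7a11, then Fth1, Ftl1 and Ncoa4, then Tfrc, Slc11a2, Slc40a1 and Hmox1. They were taken by symbol as a list of ferroptosis defence and iron storage and transport genes, out of 56980 genes in the count table, of which 17549 had enough reads to be tested. All 10 passed that filter. The list was drawn up with earlier results of these data known, so its counts are a description and not independent evidence.

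The data are bulk RNA sequencing of 13 hippocampi from males aged 9 months. All mice carried App NL-G-F, a knock-in of mutated amyloid precursor protein that gives amyloid plaques, and all were homozygous for floxed Lpcat3. All had also been gavaged with tamoxifen, from a solution of 20 mg/ml at 0.2 mg per g body weight, and whether deletion depended on it is not stated in the labels. The 7 knockout samples carried vav1-Cre in addition, whose promoter works in cells of the blood-forming lineage and in microglia. The 6 control samples, labelled WT, had no Cre but shared the App allele, the floxed gene and the tamoxifen. Lpcat3 encodes an acyltransferase that places arachidonic acid into membrane phospholipids, and the study asked how its loss from microglia bears on the response to amyloid. Cells without Cre keep Lpcat3, and whole hippocampus was sequenced, so microglia gave only part of the RNA.

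Ferroptosis is cell death from peroxidation of polyunsaturated phospholipids, a reaction that free iron drives. Gpx4 is a selenium-dependent peroxidase that reduces phospholipid hydroperoxides with glutathione, for which Slc7a11 imports cystine, and Aifm2 regenerates antioxidant ubiquinol at membranes by a separate route. Iron enters cells on transferrin through Tfrc, leaves endosomes through Slc11a2, is held in ferritin shells of Fth1 and Ftl1 chains, returns to use when Ncoa4 carries ferritin to lysosomes, and leaves the cell through Slc40a1. In the brain, oligodendrocytes and microglia are known for high ferritin. When iron is scarce, iron regulatory proteins bind stem-loops in several of these mRNAs, which blocks translation from a 5′ untranslated region (UTR) and stabilizes the mRNA from a 3′ UTR.

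The libraries held 12159941 to 18322559 counted reads. Lpcat3, the deleted gene, was read first as a check of the labels. It was at 24.7 to 30.3 CPM (reads scaled to a common library size) in controls and 17.3 to 24.3 CPM in knockouts. The groups did not overlap, but the gap between them was small. Of all 17549 genes tested, 48 (0.274%) were separated in the lower direction. The log2 fold change of Lpcat3 was -0.45 (adjusted p = 0.0962 in edgeR). Hippocampal markers were high in every library, with Prox1 at 72.5 to 104 CPM and Camk2a at 1896 to 2503 CPM. The choroid plexus markers summed to 87.7 to 2015 CPM in controls and 68.1 to 3337 CPM in knockouts, so their content varied widely within both groups. The sample numbers in the labels fall into 3 runs, 3283 to 3288 with 5 knockouts and 1 control, 3296 to 3300 with 1 knockout and 3 controls, and 4301 to 4307 with 1 knockout and 2 controls. What a run stands for is not stated, so differences within each run are given beside the pooled values. The labels do not say that each sample was a separate animal, and p-values therefore measure the spread between these samples.

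Iron-responsive stem-loops are shown first, because a strict pattern for them matched in 4 of the 10 mRNAs. The choice of genes did not use the pattern, but several of these mRNAs are known to carry such stem-loops, as said above. The search pattern was an unpaired C, 5 stem bases, the loop CAGTG followed by A, C or T, and 5 bases that pair with the stem (G-T pairs allowed), on the sense strand only. Sequences and positions are from the GENCODE M21 transcripts (GRCm38), and capitals mark the unpaired C and the loop. In the 5′ UTRs there was 1 match each in Fth1 at chr19:9982732-9982761 on the plus strand, in Ftl1 at chr7:45459778-45459807 on the minus strand and in Slc40a1 at chr1:45925464-45925493 on the minus strand. The 3′ UTR of Tfrc held 4, on the plus strand at chr16:32631219-32631248, chr16:32631598-32631627, chr16:32631663-32631692 and chr16:32631710-32631739.
Fth1: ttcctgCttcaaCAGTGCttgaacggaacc
Ftl1: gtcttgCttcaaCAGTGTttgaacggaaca
Slc40a1: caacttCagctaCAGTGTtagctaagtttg
Tfrc, site 1: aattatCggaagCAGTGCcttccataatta
Tfrc, site 2: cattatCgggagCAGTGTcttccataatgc
Tfrc, site 3: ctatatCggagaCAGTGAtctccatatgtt
Tfrc, site 4: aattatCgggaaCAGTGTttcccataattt
Both ferritin chains have the same stem bases on each side of the loop, ttcaa and ttgaa. The pattern matched 196 of 21877 principal coding transcripts (0.896%). That share is of 1 transcript per gene, whereas all coding transcripts of the 10 genes were searched, so the shares are not like for like. The coding transcripts of the other 6 genes held no match, which says only that these letters were not found there. The pattern allows no extra unpaired base within the 5 pairs, so a stem-loop of another form would be missed. A match is a description of the sequence and no measurement of binding.

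No gene of the 10 passed an adjusted p of 0.05 in edgeR's quasi-likelihood test, where 4 of all 17549 genes did (0.0228%), 1 of them lower in the knockout (0.0057%). At an unadjusted p under 0.05, 4 of the 10 were lower in the knockout, namely Gpx4, Fth1, Ftl1 and Tfrc, and 0 were higher, against 7.25% of all genes lower and 5.23% higher. With DESeq2, 3 of the 10 passed after adjustment (Gpx4, Fth1 and Ftl1), all lower, as did 0.57% of all genes in that direction. The median log2 fold change of the 10 was -0.06, beside -0.0041 for all genes tested. By sign, 6 of the 10 were below 0, against 51.3% of all genes. The other 6 genes, Aifm2, Slc7a11, Ncoa4, Slc11a2, Slc40a1 and Hmox1, had unadjusted p between 0.315 and 0.926. The fold changes of the 4 lower genes lay between 0.827 and 0.875.

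Gpx4 (ENSMUSG00000075706, chromosome 10), the phospholipid hydroperoxide peroxidase, ranged from 120.3 to 141 CPM in controls with a median of 129.8 CPM. In knockouts it ranged from 98.1 to 119 CPM with a median of 105.6 CPM. Every knockout lay below every control, although the gap between the highest knockout, replicate 4, and the lowest control, replicate 3, was small. Separation of this kind in the lower direction was found for 48 of 17549 genes (0.274%), and Gpx4 was the only gene of the 10 that had it. In the higher direction 0.171% of all genes were separated and 0 of the 10. Group means were 129 ± 7.45 CPM (SD, n = 6) against 107 ± 8.95 CPM (SD, n = 7). The log2 fold change was -0.27 (SE 0.055), a level 17.3% lower, with an unadjusted p of 9.17e-05, place 15 among all genes and an adjusted p of 0.0962 in edgeR. With the groups fully apart, the difference within each run of label numbers could only be below 0, so its sign adds nothing. Its size was -0.25, -0.305 and -0.36 log2 units. The call depended on the setting: Gpx4 passed in DESeq2 (adjusted p = 0.00468, where 0.57% of genes were called lower), in edgeR without the count filter (adjusted p = 0.0281, 0.117% of genes called lower) and in edgeR with the choroid plexus score as a term (adjusted p = 0.0249, 0.331% of genes called lower).

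Gpx4 makes its active site from selenocysteine, which is read from an in-frame TGA. A near-identical processed copy, Gpx4-ps2, keeps that codon, and both are shown because reads from the 2 loci could be confused. The TGA, in capitals, is codon 73 of the 197 coding codons of Gpx4 at chr10:80054737-80054739, and in the copy it lies at chr10:45875468-45875470, both on the plus strand of GRCm38 in GENCODE M21.
Gpx4: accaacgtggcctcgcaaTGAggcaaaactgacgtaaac
Gpx4-ps2: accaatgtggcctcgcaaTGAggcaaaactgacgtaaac
Over 762 aligned bases the copy was 99.7% identical to the Gpx4 transcript. Gpx4-ps2 was listed with 112 to 204 reads per library, 8.40% to 10.4% of the Gpx4 reads. Its pooled log2 fold change was -0.27 (SE 0.089, adjusted p = 0.229 in edgeR), equal to that of Gpx4. Within the runs the copy differed by -0.06, -0.53 and -0.38 log2 units, where Gpx4 was at -0.25, -0.305 and -0.36. Which locus the reads of the copy came from was not tested. With the copies' reads added to the parent gene, Gpx4 kept a log2 fold change of -0.27 (SE 0.054).

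The 2 other defence genes showed values near the control level with wide intervals. Slc7a11 (ENSMUSG00000027737, chromosome 3), the cystine and glutamate exchanger, ranged from 22.3 to 36.7 CPM in controls and from 23.8 to 33.2 CPM in knockouts, with medians of 28.5 and 30.02 CPM. The groups overlapped throughout, and the 95% interval of its log2 fold change ran from -0.23 to 0.21. Aifm2 (ENSMUSG00000020085, chromosome 10), also known as Fsp1, ranged from 7.67 to 11.4 CPM in controls and from 7.42 to 10.3 CPM in knockouts, with medians of 9.52 and 8.55 CPM. On the log2 scale Aifm2 differed by -0.11 (SE 0.105), with a 95% interval of -0.34 to 0.12, and the difference within runs was -0.15, -0.05 and 0.14 log2 units. Aifm2 shares 233 exon bases with H2afy2 on the opposite strand, a gene listed with 164 to 321 reads per library. The strand setting of the counting is not given in the sources used here, so reads in that stretch cannot be told apart.

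Fth1 (ENSMUSG00000024661, chromosome 19) encodes the ferritin heavy chain, which oxidizes iron for storage. It was read at 1766 to 2088 CPM in controls with a median of 1977 CPM, and at 1399 to 1871 CPM in knockouts with a median of 1644 CPM. Of the 7 knockouts, 6 lay below every control. The exception was knockout replicate 4, which lay above 2 of the 6 controls, replicates 1 and 5. The means were 1954 ± 126.5 CPM (SD, n = 6) and 1631 ± 149 CPM (SD, n = 7), a level 16.5% lower. The log2 fold change was -0.26 (SE 0.061), with an unadjusted p of 0.000416, place 64 among all genes and an adjusted p of 0.114 in edgeR. Within the runs the difference was -0.14, -0.235 and -0.24 log2 units.

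Ftl1 (ENSMUSG00000050708, chromosome 7) encodes the ferritin light chain, which helps the iron core to form. Control values ran from 117 to 141 CPM with a median of 134 CPM, and knockout values from 103 to 124 CPM with a median of 110.2 CPM. Again 6 of 7 knockouts lay below every control, and again the exception was knockout replicate 4, which lay above control replicate 1 alone. The log2 fold change was -0.24 (SE 0.052), a level 15.4% lower, with an unadjusted p of 0.000205, place 33 among all genes and an adjusted p of 0.0965 in edgeR. Within the runs the difference was -0.07, -0.21 and -0.35 log2 units, so it was smallest in the run that holds 5 of the 7 knockouts. Both ferritin chains passed in DESeq2 (adjusted p = 0.00774 for Fth1 and 0.0087 for Ftl1) and in edgeR with the choroid plexus score as a term (adjusted p = 0.0225 and 0.0385). Both also passed in edgeR without control replicate 1 (adjusted p = 0.0491 and 0.028), the control with the lowest value of each chain, where 0.225% of genes were called lower. Reads listed for annotated ferritin pseudogenes were at most 1.89% of the parent gene, and Ftl1-ps1, with 12 to 36 reads per library, was 99.6% identical to Ftl1 over 910 aligned bases.

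Ncoa4 (ENSMUSG00000056234, chromosome 14), the receptor that delivers ferritin to lysosomes, had the smallest standard error of the 10. It ranged from 69.0 to 76.7 CPM in controls with a median of 71.0 CPM, and from 68.8 to 77.1 CPM in knockouts with a median of 72.3 CPM. The groups overlapped over nearly their whole range. The difference was 0.01 on the log2 scale (SE 0.043), and its 95% interval of -0.09 to 0.10 leaves out a difference as large as that of either ferritin chain.

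Tfrc (ENSMUSG00000022797, chromosome 16) encodes the transferrin receptor, the main door for iron. In controls it was read at 112 to 136 CPM with a median of 120.1 CPM, and in knockouts at 102 to 122 CPM with a median of 105 CPM. Of the 7 knockouts, 5 lay below every control. Knockout replicate 5 was the highest of its group and lay above 4 of the controls. The log2 fold change was -0.19 (SE 0.055), a level 12.5% lower, with an unadjusted p of 0.0026, place 249 among all genes and an adjusted p of 0.183 in edgeR. Tfrc did not pass in DESeq2 either (adjusted p = 0.0813), and within the runs the difference was -0.15, -0.20 and -0.15 log2 units.

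Slc11a2 (ENSMUSG00000023030, chromosome 15), the divalent metal transporter also called DMT1, ranged from 60.8 to 71.0 CPM in controls and from 59.6 to 74.4 CPM in knockouts, with medians of 66.6 and 68.5 CPM. This gave a log2 fold change of 0.02 (SE 0.057), with a 95% interval of -0.11 to 0.145. Slc40a1 (ENSMUSG00000025993, chromosome 1), which encodes the iron exporter ferroportin, ranged from 27.8 to 35.9 CPM in controls and from 28.3 to 41.1 CPM in knockouts, with medians of 33.2 and 31.9 CPM. The highest value was that of knockout replicate 5, and the groups overlapped. For Slc40a1 the log2 fold change was 0.03 (SE 0.085), with a 95% interval of -0.15 to 0.22. Hmox1 (ENSMUSG00000005413, chromosome 8) encodes heme oxygenase 1, a stress-induced enzyme that frees iron from heme. It was low, at 4.89 to 9.40 CPM in controls and 5.25 to 7.68 CPM in knockouts, with medians of 6.20 and 6.44 CPM. The highest sample of all was control replicate 5, and the differences within runs, 0.42, 0.30 and -0.40 log2 units, had no common sign. For Hmox1 it was 0.04 (SE 0.143), with a 95% interval of -0.27 to 0.36, the widest of the 10. Like Aifm2 and Hmox1, the remaining 4 genes had no common sign within the runs, with 0.07, 0.02 and -0.14 log2 units for Slc7a11, 0.07, -0.02 and 0.01 for Ncoa4, -0.07, -0.08 and 0.18 for Slc11a2, and -0.14, 0.12 and -0.0032 for Slc40a1.

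**Figure D1:**
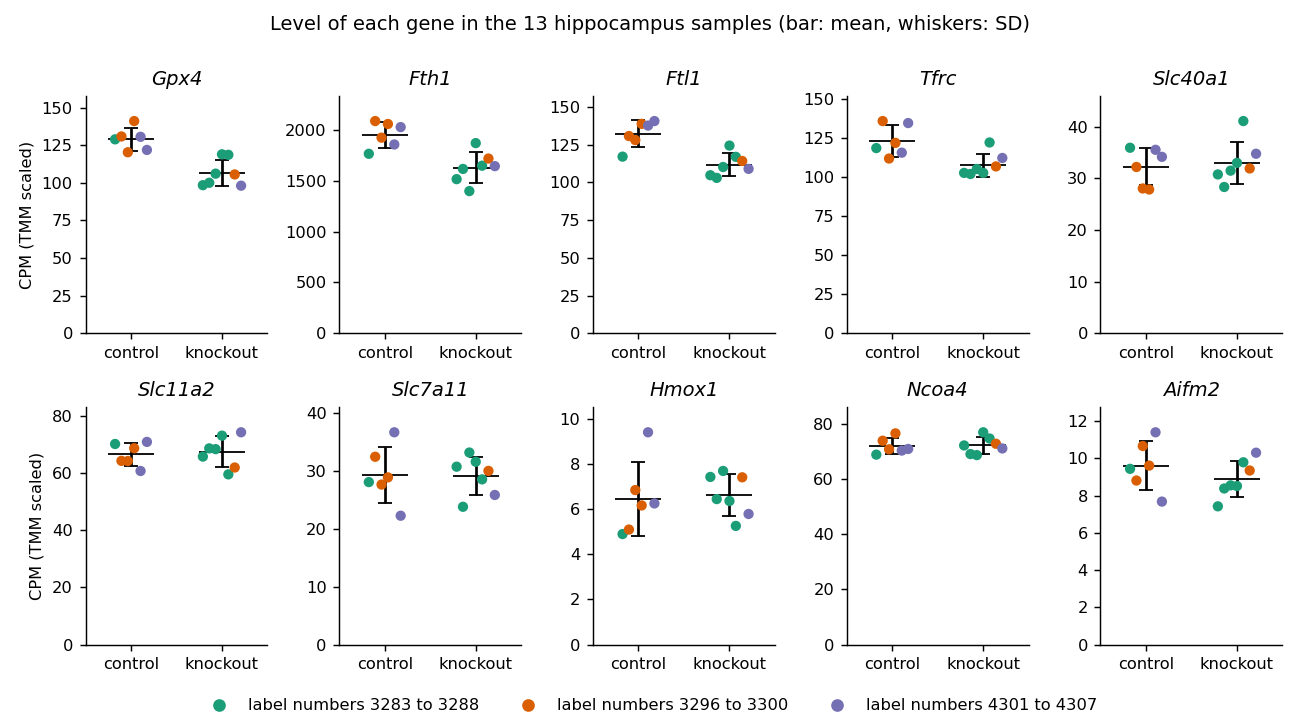
Level of each of the 10 genes in CPM with TMM scaling (linear axis from 0) in 6 control and 7 knockout samples, 1 point per sample coloured by run of label numbers, with a bar at the group mean and whiskers of 1 SD. The groups are apart for Gpx4, overlap by 1 knockout for Fth1 and Ftl1 and by 2 for Tfrc, and overlap widely for the other 6 genes.

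The levels of the genes can be compared only per length, and the order below is of mean CPM per kilobase of the principal transcript over the 13 samples. Fth1 stood far above the rest at 1191 CPM per kilobase. Ftl1 at 125 and Gpx4 at 122 CPM per kilobase followed and on this scale did not differ beyond their spread, Ftl1 being the higher in 9 of 13 samples. Tfrc at 23.45 and Slc11a2 at 22.2 CPM per kilobase were also close on this scale, with Tfrc higher in 8 of 13 samples. Ncoa4 at 17.8, Slc40a1 at 9.70 and Hmox1 at 4.17 CPM per kilobase came next. Slc7a11 at 3.17 and Aifm2 at 2.99 CPM per kilobase closed the order, and Slc7a11 was the higher in 7 of 13 samples. With the union of all exons as the length, Ftl1 at 90.5 stood above Gpx4 at 67.8 CPM per kilobase, and Tfrc at 18.5 above Slc11a2 at 10.6 CPM per kilobase, in 13 of 13 samples each. On that scale Hmox1 stood above Slc40a1 and Aifm2 above Slc7a11, each pair within its spread.

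Ratios within a sample do not depend on library scaling, and 3 were compared. They were not adjusted for gene length, which is described below. All genes as long as Tfrc had a median log2 fold change of 0.01, and those as long as Fth1 had -0.11 (bins of principal transcript length). The part of length in the ratio of Tfrc to Fth1 was not tested. The reads of Fth1 were 13.5 to 16.0 times those of Ftl1 in controls and 12.7 to 15.7 times in knockouts. The log2 ratio differed by -0.02 (SE 0.050) between the groups, with an exact two-sided permutation p of 0.694 over 1716 splits. The ratio of Tfrc to Fth1, uptake against storage, differed by 0.07 log2 units (SE 0.069, exact permutation p = 0.341). The ratio of Gpx4 to Fth1 differed by -0.01 log2 units (SE 0.067, exact permutation p = 0.839). All 3 had an adjusted p of 0.839. In the pooled samples no shift between storage chains, between uptake and storage or between Gpx4 and Fth1 was thus detectable. Within the runs, Gpx4 to Fth1 differed by -0.115, -0.07 and -0.12 log2 units, each farther below 0 than the pooled -0.01. The runs hold the groups in unlike proportions, with 1 sample in one group of each, and a shift within runs was not settled. Fth1 to Ftl1 differed within the runs by -0.07, -0.02 and 0.11, and Tfrc to Fth1 by -0.01, 0.03 and 0.09.

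**Figure D2:**
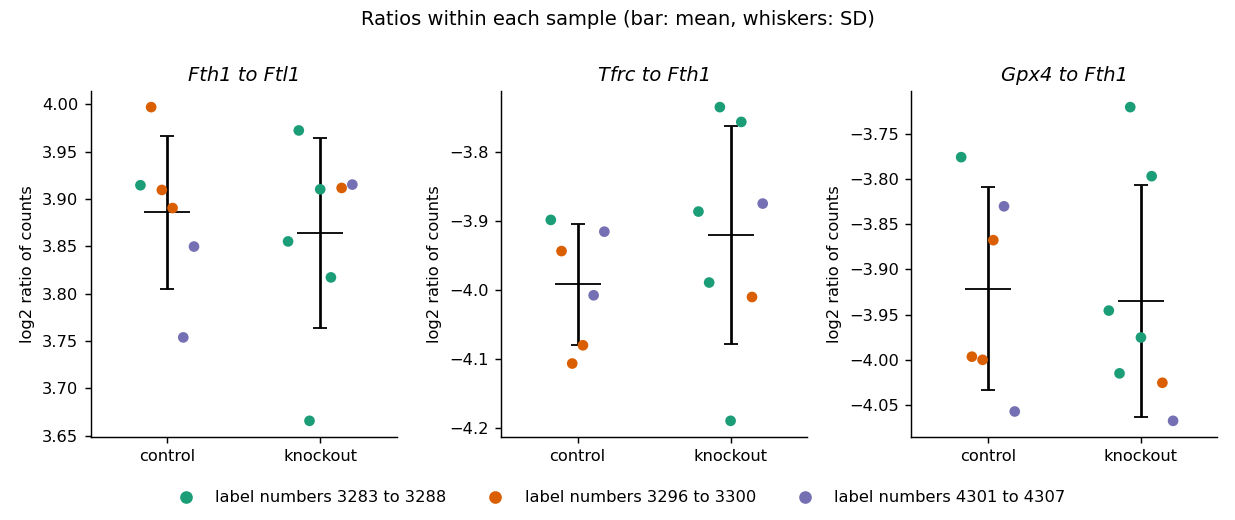
Log2 ratio of read counts within each sample for Fth1 to Ftl1, Tfrc to Fth1 and Gpx4 to Fth1, 1 point per sample coloured by run, with a bar at the group mean and whiskers of 1 SD (each axis has its own range, not starting at 0). The 6 controls and 7 knockouts overlap in every panel.

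Within a group, Gpx4 and Ftl1 varied together among the 7 knockouts, with Pearson r = 0.892 (permutation p = 0.00853) and Spearman rho = 0.821 (permutation p = 0.0341). Adjusted over the 6 relations computed, these were 0.0512 and 0.205 by permutation, and r was 0.701 without the 2 samples farthest from the Gpx4 median. Among the 6 controls the same pair gave r = 0.176 (exact permutation p = 0.719) and rho = 0.257 (exact permutation p = 0.658). Fth1 and Ftl1 gave r = 0.656 in both groups, with exact permutation p of 0.157 in controls and 0.107 in knockouts, and rho of 0.486 (p = 0.356) and 0.714 (p = 0.0881). Gpx4 and Fth1 gave r of 0.211 in controls and 0.484 in knockouts (exact permutation p = 0.66 and 0.273), with rho of 0.486 (p = 0.356) and 0.464 (p = 0.302). Left without their 2 outermost samples, the Gpx4 and Fth1 relations turned to -0.27 and -0.205, so they rested on those samples. No relation passed after adjustment. Over all 13 samples, group differences included, the genes whose log2 CPM was most like Gpx4 were Sod1 (r = 0.92), Cib1 (0.917), Spcs1 (0.914), Ift20 (0.909) and Prdx1 (0.905). For Fth1 they were Tceal3 (r = 0.978), Bloc1s2 (0.965), Fis1 (0.961), Psmb1 (0.947) and Caly (0.943), and for Ftl1 they were Oaz1 (r = 0.952), Prdx2 (0.935), Apoe (0.932), Rtl8b (0.922) and Ubb (0.916). These 15 genes had log2 fold changes between -0.30 and -0.16. Choosing genes by likeness over both groups favours that direction, so the shared sign is no separate result. Apart from Prdx1 and Psmb1, their principal transcripts had at most 1612 bases.

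Gene length moved with the groups across the whole table, and Gpx4, Ftl1 and Fth1 are short genes. The genes with a known length were put in 10 bins of equal number by the length of the principal transcript. In bin 1, with up to 1092 bases, the median log2 fold change was -0.14 and 74.6% of genes were below 0. In bin 2 the median was -0.11, and from bin 4 to bin 9 it lay between 0.01 and 0.03. The shortest 20% of genes, here by the union of all exons, held 7.36% to 8.22% of counts in controls and 6.90% to 7.49% in knockouts (exact two-sided permutation p = 0.00291). Within the runs this share differed by -0.19, -0.37 and -1.11 percentage points. Mitochondrial reads were 1.64% to 1.94% of counts in controls and 1.45% to 1.73% in knockouts (exact two-sided permutation p = 0.00466), with -0.13, -0.20 and -0.29 percentage points within the runs.

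Gpx4, with 959 bases, and Ftl1, with 968 bases, lie in bin 1, where 19.3% and 25.0% of genes had a log2 fold change at or below theirs. With a smooth trend of principal transcript length taken out of each library, the log2 fold change of Gpx4 was -0.15 (SE 0.047, adjusted p = 0.259 in edgeR), and with length and GC trends of the exon union taken out it was -0.18 (SE 0.057). For Ftl1 it was -0.12 (SE 0.042) with principal transcript length, -0.14 (SE 0.042) with exon union length and -0.12 (SE 0.041) with length and GC. Fth1 has 1494 bases in its principal transcript but 3469 in the union of its exons, which includes retained introns, so it lies in bin 2 by principal transcript and in bin 5 by exon union. The log2 fold change of Fth1 was -0.19 (SE 0.056) with the principal length trend removed and -0.26 (SE 0.061) with the union trend. Tfrc, with 4890 bases, lies in bin 9, whose median was 0.01, and 8.28% of that bin was at or below it. It was at -0.21 (SE 0.060) once the principal length trend was removed. Each of the 4 genes thus stayed below 0 with length removed, with an adjusted p of 0.129 or more in edgeR under the 3 length settings. Hmox1, at 1569 bases in bin 2, lay above the median of that bin by 0.15 log2 units. Gpx4 and Ftl1 thus moved towards 0 when length was taken out and Tfrc did not, and whether the length pattern is technical or biological was not tested.

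**Figure D3:**
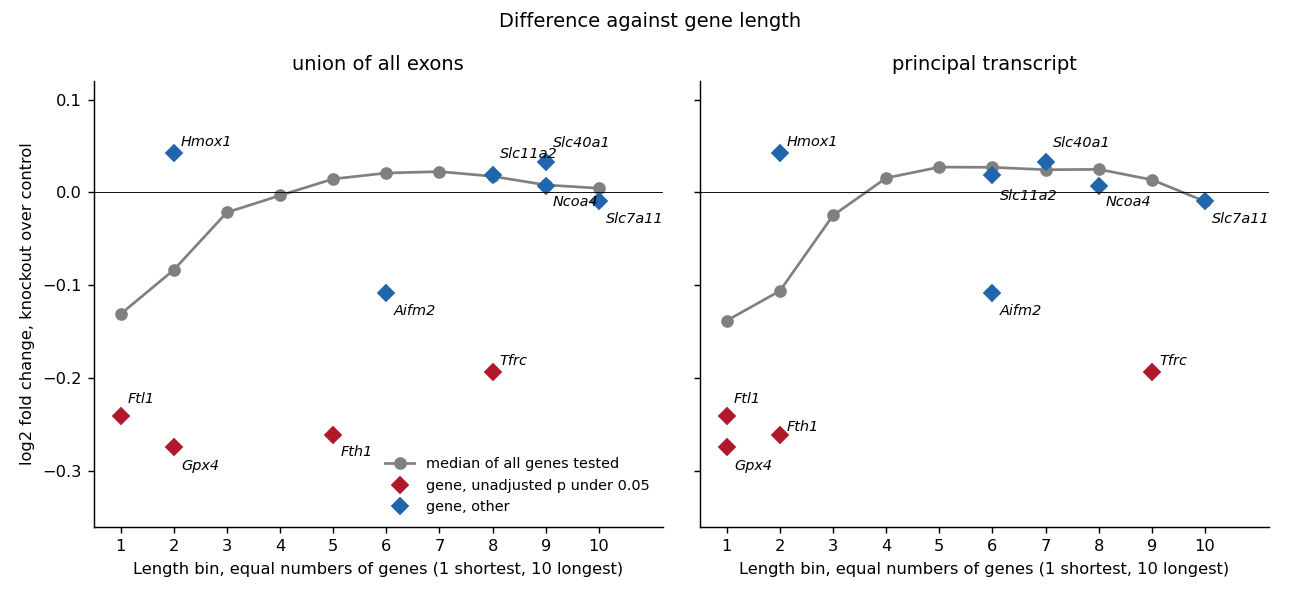
Log2 fold change (knockout over control) against length bin (1 shortest, 10 longest), by exon union on the left and by principal transcript on the right, with grey points and lines for the median of all genes tested and diamonds for the 10 genes, red where the unadjusted p was under 0.05. The median falls from near 0 to -0.14 in bin 1 on the right, Gpx4 and Ftl1 lie below it there, and Tfrc lies at -0.19 among long genes.

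Markers of cell types were read beside these values, because in bulk tissue fewer cells of a type and less RNA per cell cannot be told apart. None of the 13 marker lists had a gene at 0 in every library. Of 19 markers of plaque-associated microglia, 10 were lower at an unadjusted p under 0.05 and 0 were higher, with a median log2 fold change of -0.26, where 7.25% of all genes were lower and 5.23% higher. Their summed level was 2973 to 3822 CPM in controls and 2794 to 3196 CPM in knockouts (CPM by library size alone, exact two-sided permutation p = 0.028, adjusted p = 0.257 over the 13 lists). Within the runs this sum differed by 0.01, -0.03 and -0.32 log2 units, the first run holding 1 control, and its part in the values of the 4 genes was not tested beyond the fits with marker scores. Of 12 homeostatic microglia markers, 0 passed an unadjusted p of 0.05, with sums of 877 to 999 CPM in controls and 828 to 993 CPM in knockouts. Septum and striatum markers, of which 5 of 10 tested were lower at that p (7.25% of all genes), summed to 156 to 211 CPM and 133 to 192 CPM (exact permutation p = 0.0396, adjusted p = 0.257), with -0.07, -0.31 and -0.25 log2 units within the runs. Inhibitory neuron markers, 4 of 10 lower and 9 of 10 below 0 with a median of -0.18, summed to 662 to 936 CPM in controls and 644.5 to 725 CPM in knockouts (exact permutation p = 0.0845), with -0.05, -0.26 and -0.04 log2 units within the runs. Of 12 astrocyte markers 4 were lower and 9 were below 0, with a median of -0.05 and sums of 5965 to 6506 CPM and 5836 to 6446 CPM (exact permutation p = 0.241). Of 14 mature oligodendrocyte markers 3 were lower and 13 were below 0, with a median of -0.10. Their sums ran from 7275 to 12260 CPM in controls and from 6777 to 13040 CPM in knockouts (exact permutation p = 0.755).

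With both microglia scores as terms in edgeR, the log2 fold change was -0.24 (SE 0.084) for Gpx4 and -0.28 (SE 0.084) for Fth1. It was -0.14 (SE 0.076, unadjusted p = 0.0761) for Ftl1 and -0.09 (SE 0.083, unadjusted p = 0.283) for Tfrc. With the oligodendrocyte score as a term Tfrc was at -0.12 (SE 0.054), while Gpx4 and Fth1 were at -0.26 and -0.27. Slc40a1 was at 0.16 with that score (SE 0.078, unadjusted p = 0.0499, adjusted p = 0.434). Beside the microglia scores the values of Ftl1 and Tfrc thus shrank by over 1.5 times and those of Gpx4 and Fth1 did not, and that contrast was not tested. The plaque-associated score includes Apoe, which was among the genes most like Ftl1 above (r = 0.932). Standard errors also grew with these terms, for Tfrc from 0.055 to 0.083, so the shrinkage does not measure a microglial share. With the run of label numbers as a term the 4 genes were at -0.30, -0.20, -0.20 and -0.17 in the order Gpx4, Fth1, Ftl1 and Tfrc, with adjusted p between 0.405 and 0.531 in edgeR.

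**Figure D4:**
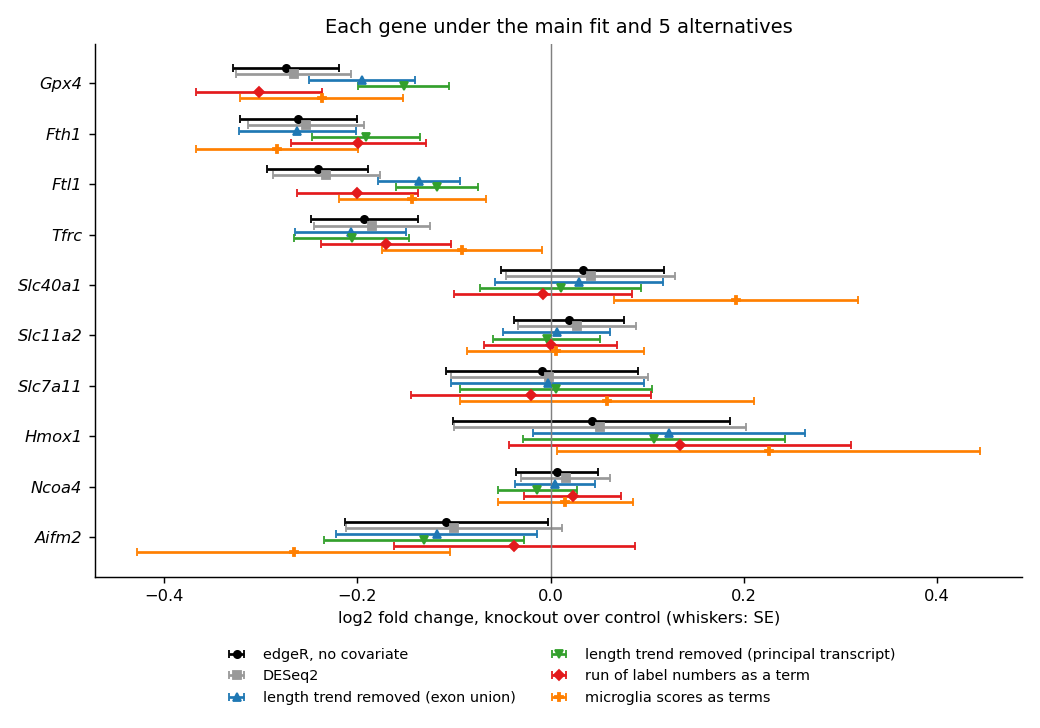
Log2 fold change (knockout over control, x axis) of each of the 10 genes in edgeR without covariates and under 5 alternatives, with whiskers of 1 SE. Gpx4, Fth1, Ftl1 and Tfrc stay below 0 in all 6, Ftl1 is nearest 0 with a length trend removed (-0.12 by principal transcript), and Tfrc with the microglia scores (-0.09).

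The other genes of these pathways gave 0 calls in edgeR at an adjusted p of 0.05 in each of 5 lists, whereas DESeq2 called Slc39a14 and Iscu of the iron genes and Gstm1 of the Nrf2 targets, and limma-voom called 0. For reading their counts, 7.25% of all genes tested were lower and 5.23% higher at an unadjusted p under 0.05, with a median log2 fold change of -0.0041. Of 41 other iron handling genes tested, 5 (12.2%) were lower and 1 (2.44%) higher at that p, with a median of 0.01. Slc39a14, a zinc and iron importer, had a mean of 55.9 ± 3.12 CPM (SD) over the 6 controls and of 65.6 ± 3.73 CPM over the 7 knockouts, or 0.23 on the log2 scale (adjusted p = 0.0965 in edgeR). Its direction was thus opposite to that of Tfrc. Iscu, the scaffold on which iron-sulfur clusters are built, was at 53.0 ± 2.38 and 45.3 ± 3.42 CPM (log2 fold change -0.22, adjusted p = 0.135 in edgeR).

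Among 36 other genes of lipid peroxidation and ferroptosis, 4 (11.1%) were lower and 2 (5.56%) higher at an unadjusted p under 0.05, with a median of -0.01. Both shares were near the 7.25% and 5.23% of all genes. Ptgs2, cyclooxygenase 2, had a log2 fold change of 0.24 (adjusted p = 0.253 in edgeR). Pts, an enzyme of tetrahydrobiopterin synthesis, and Sat1, which acetylates polyamines, were both at -0.14 (adjusted p = 0.312 and 0.318).

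Gpx4 is 1 of the selenoproteins, and of 20 others tested 4 (20%) were lower and 2 (10%) higher at an unadjusted p under 0.05, against 7.25% and 5.23% of all genes. They had 10 on each side of 0 and a median of -0.03. Gpx1, the cytosolic glutathione peroxidase, had means of 7.73 ± 0.628 CPM in controls against 5.94 ± 0.999 CPM in knockouts (SD), or -0.38 on the log2 scale (adjusted p = 0.198 in edgeR). Gpx3, the secreted form, was at -0.58 (adjusted p = 0.235), and Txnrd1, thioredoxin reductase 1, was at 0.13 (adjusted p = 0.225). The selenoproteins thus had no common direction. Of 8 genes of the machinery that inserts selenocysteine, 1 (12.5%, against 7.25% of all genes) was lower at an unadjusted p under 0.05, with a median of -0.07. That gene was Trnau1ap, which binds the selenocysteine tRNA, at -0.25 (adjusted p = 0.324). Pstk, a kinase acting on that tRNA, was at -0.15, and Secisbp2, which binds the insertion element, was at -0.17, with adjusted p of 0.533 and 0.535.

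Nrf2 is a transcription factor that switches on antioxidant genes, Slc7a11, Hmox1 and both ferritin chains among them. Of 16 other targets, 2 were lower and 2 higher at an unadjusted p under 0.05 (12.5% each, against 7.25% and 5.23% of all genes), with a median of 0.01. Gstm1, a glutathione transferase, had means of 236 ± 24.5 CPM in controls against 193 ± 15.9 CPM in knockouts (SD), or -0.29 on the log2 scale (adjusted p = 0.1 in edgeR), whereas Me1, malic enzyme, was at 0.15 (adjusted p = 0.225) beside Txnrd1 above. The core TGACNNNGC that Nrf2 recognizes was searched on both strands of 300-base RefSeq promoter windows (250 bases before and 50 after a start, GRCm38.p6). It was found in 1 of 14 windows of the 7 genes that had one, a window of Ncoa4, against 12.4% of 32851 windows, which is a description of letters and says nothing of binding.

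**Figure D5:**
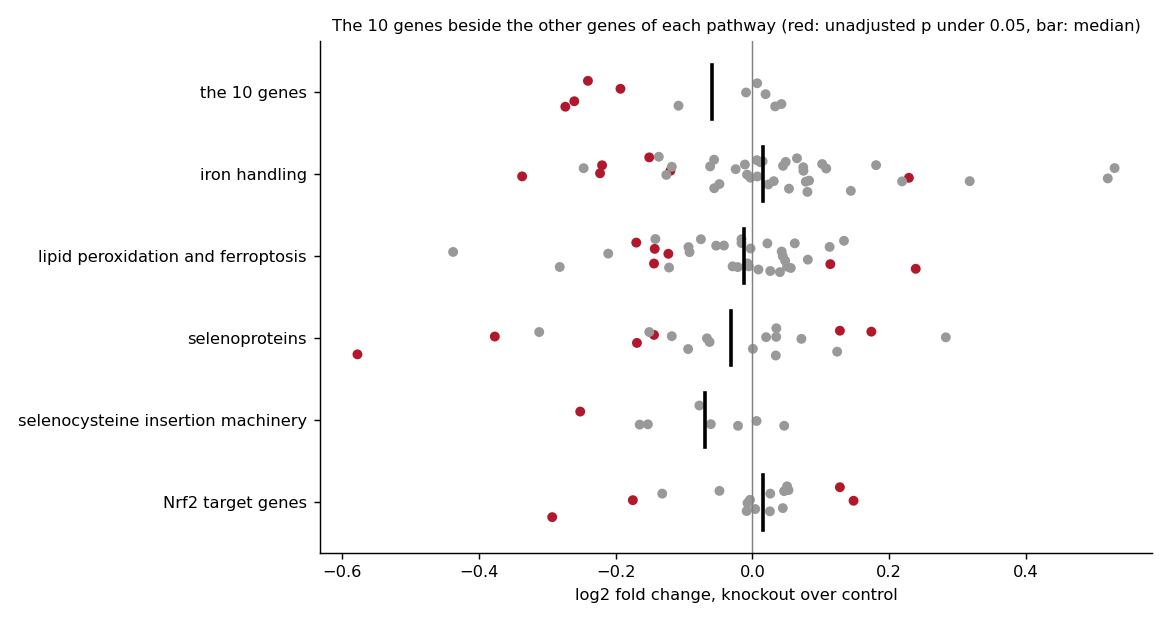
Log2 fold change (knockout over control, x axis) of the 10 genes and of the tested genes in each of 5 pathway lists, 1 point per gene, red where the unadjusted p was under 0.05, with a bar at each median. The medians lie between -0.07 and 0.01, and every list has genes on both sides of 0.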

How the data were processed

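The authors deposited whole-number read counts per gene, with no normalization. Per the labels' protocols, RNA came from a Quick-RNA miniprep and went into libraries with the SMART-Seq mRNA LP kit. The submitters' processing notes name the build GRCm39 and STAR 2.7.10a, featureCounts 2.0.3, DESeq2 1.36.0 and R 4.2.0, with no role for any. Annotation release, strand setting and handling of multimapped reads were not given in the sources used here. GENCODE M21 on GRCm38, an older build, supplied symbols for 52125 genes (99.7% of counts) and length and GC for 98.5% of the genes tested. All 13 libraries were kept, since the closest 2 of a group still differed beyond counting noise (chi-square per gene 3.13, and up to 20.4, in 36 pairs).

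The main test was edgeR 4.0.16 under R 4.3.3, a quasi-likelihood fit with TMM scaling, filterByExpr and no covariate, with Benjamini-Hochberg adjustment over 17549 genes. SE is the log2 fold change over the root of F, and intervals are at 95% with 11 residual degrees of freedom. Alternatives were DESeq2 1.42.0 (which gave no adjusted p to 4764 genes), limma 3.58.1 (voom with quality weights), other scalings and filters (none, or a mean count of at least 50), terms for the runs and marker scores, length and GC trends (lowess span 0.4), and leaving out each library. The principal transcript trend and the addition of pseudogene copies were chosen after seeing the data. The genes and lists were chosen with earlier results of these data known. Named were the 10 genes, up to 3 per pathway list by smallest p, the 5 most correlated with each of Gpx4, Fth1 and Ftl1, Lpcat3 and pseudogene copies. A gene that this rule names is not reported here.

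In simulated counts of this design (17342 genes), the edgeR script found 36% of the genes given a 1.25-fold change, 64.6% of those at 1.5-fold, 86% of those at 2-fold and 97.7% of those at 3-fold. Of its calls 2.88% were false. The 1.25-fold and 2-fold changes were all increases, and the 1.5-fold and 3-fold changes were all decreases. A decrease as small as those of Gpx4, Fth1, Ftl1 and Tfrc was therefore not simulated. Genes were drawn independently, with no length trend or difference between runs, so these shares need not hold for the real libraries.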

Additional observations from a re-analysis of the deposited data

How the results depend on the processing

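Gpx4, Fth1, Ftl1 and Tfrc stayed below 0 under all 28 alternatives each, over the ranges -0.30 to -0.15, -0.30 to -0.19, -0.27 to -0.12 and -0.22 to -0.09. Aifm2 also stayed below 0, from -0.16 to -0.05 without 1 library and from -0.27 (microglia scores) to -0.04 (run term) otherwise. Calls over all genes numbered 4 in edgeR, 181 in DESeq2, 66 without a count filter, 1 at a mean count of at least 50, 9 with the microglia scores and 78 with the choroid plexus score. Of the 10 genes, 3 were called in DESeq2, 1 without a filter and 3 with the choroid plexus score. Leaving out 1 library gave 3 to 80 calls over all genes (80 without control replicate 1 and 7 without knockout replicate 3) and 0 to 2 of the 10 genes (2 without control replicate 1). Signs turned for values near 0. Slc40a1 was at -0.0078 with the run term. Slc11a2 was at -0.0099 without samples 4301 to 4307, -0.015 with the oligodendrocyte score and -0.0037 with the principal length trend removed. Slc7a11 was at 0.022, 0.062 and 0.0059 in those 3 settings, at 0.059 with the microglia scores and at 0.012 with the choroid plexus score. Ncoa4 was at -0.0040 with length and GC removed and -0.013 with the principal length trend removed. Without 1 library Slc40a1 ran from -0.0232 to 0.0725, Slc11a2 from -0.00511 to 0.0493, Slc7a11 from -0.0702 to 0.0695, Hmox1 from -0.0192 to 0.184 and Ncoa4 from -0.00926 to 0.0304, and the log2 ratios of Fth1 to Ftl1 from -0.0483 to 0.0111, of Gpx4 to Fth1 from -0.0496 to 0.0151 and of Tfrc to Fth1 from 0.0409 to 0.117. The cause of these shifts was not tested. No paired analysis was possible because the groups share no number in the labels. At this depth Aifm2 and Hmox1, with few reads, have the widest limits.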
